A study of Mus musculus with 8 samples.

Results

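A set of 10 genes that store, translate or destroy maternal messenger RNA was followed on all 8 microarrays of a study of connexin 43 in mouse reproduction. The genes were Btg4, Cnot6l, Cnot7, Tob1, Zfp36l2, Zar1, Cpeb1, Ybx2, Dazl and Pabpc1l. They were chosen for their known roles in translational control and deadenylation, with earlier results of these data known. Every probe set annotated to one of them alone was read, which gave 19 probe sets for 10 genes, out of 34945 probe sets and 18193 genes with a probe set of their own. Of these genes 5 had 1 probe set, 2 had 2, 2 had 3 and Cnot6l had 4. Each gene was represented by its brightest probe set, ranked by mean log2 signal, and the other probe sets are given beside it.

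An oocyte builds up messenger RNA while it grows, and then completes meiosis and starts development with little or no transcription of its own. Part of that store is kept silent by RNA-binding proteins and is translated at a set time through lengthening of the poly(A) tail, and much of it is later destroyed after the tail is shortened by deadenylases. BTG4 is an adaptor that brings the CCR4-NOT deadenylase to maternal messages, CNOT7 and CNOT6L are catalytic subunits of that complex, TOB1 is a BTG/Tob family adaptor of the same deadenylase, and ZFP36L2 binds AU-rich elements and recruits it. ZAR1, CPEB1, YBX2, DAZL and PABPC1L bind stored or translated messages in the oocyte: CPEB1 binds the cytoplasmic polyadenylation element, YBX2 stabilises maternal messages broadly, DAZL promotes translation in germ cells, and PABPC1L is the poly(A)-binding protein of oocytes and early embryos.

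The study compared knockout (KO) with wild-type (WT) material for connexin 43 (Gja1), a protein of gap junctions, with depletion directed to the oocyte. The 3 stages were profiled from polyadenylated RNA: MII oocytes, which are eggs arrested at the second meiotic metaphase (1 KO and 1 WT array), blastocysts (2 KO and 2 WT arrays), and material labelled as embryo from the implantation site (1 KO and 1 WT array). The driver of the depletion, the age of the mice and the number of oocytes or embryos pooled for each array are not given in the sources used here, nor is it stated that replicate arrays came from separate collections, so the p-values cover no more than how these arrays vary.

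The values are signal intensities on a linear scale, with a trimmed mean of 500.0 on every array and medians of 134.2 to 220.3, so each value is a share of its own array's signal. In such bulk RNA, fewer cells of a type and less RNA per cell cannot be told apart. The brightest of the 27 Bacillus control probe sets on an array was taken as its control level. It ran from 130.9 to 587.6. This assumes samples free of added Bacillus RNA, a point on which the sources used here are silent. The representing probe set of Gja1 (GRCm38.p6 chr10:56377300-56390419) gave 375 and 553 in KO blastocysts, against 9835 on WT replicate 1 and 574 on WT replicate 2. The array labelled WT replicate 2 thus lay near the KO arrays, but above its control level, while both KO arrays were below theirs. The Gja1 probe sets disagreed. On another of them WT replicate 2 was highest, with 855, against 516 and 535 in KO and 337 on WT replicate 1. On the remaining ones WT replicate 2 was not above the higher KO array, and WT replicate 1 was above both. Whether the label is right was not tested. On the representing probe set the implantation site arrays gave 28105 in KO and 44493 in WT. The oocyte arrays gave 149.7 in KO and 126 in WT, both below the control level. The labelled stages were read against marker lists. The 6 measured oocyte markers summed to 64374 (KO) and 100797 (WT) in oocytes and to 1000 to 2147 on the blastocyst arrays, although Zp3 itself was dim in oocytes. All 6 trophectoderm markers were above the control level on every blastocyst array, as were 2 in KO and 3 in WT oocytes. They summed to 43217 to 53893 on the blastocyst arrays and to 3080 (KO) and 1618 (WT) in oocytes. Gata3 went the other way, with 995 in KO and 864 in WT oocytes against 668 to 734 on the blastocyst arrays. At the implantation site all 10 markers of uterine stroma and decidua were above the control level on both arrays. They summed to 159051 (KO) and 136784 (WT), against 1060 to 2691 in blastocysts and 2962 (KO) and 3115 (WT) in oocytes. The count depends on the control level, as 8 of the 10 were also above it in WT oocytes and 1 in KO oocytes. Prl8a2 went the other way, with 217 in KO and 211 in WT implantation sites against 708 in KO and 588 in WT oocytes. Wnt4 gave 385 in KO and 432 in WT implantation sites, against 223 in KO and 306 in WT oocytes. Of the 6 trophectoderm markers 3 (Krt8, Krt18 and Eomes) were above the control level at the implantation site, with sums of 1256 (KO) and 1344 (WT), and Cdx2 was below it. Of the 5 inner cell mass markers 1 in KO and 2 in WT were above it, mostly through Klf4 (2502 in KO and 6151 in WT), and Nanog was below it. These arrays are called implantation site here.

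Both oocyte arrays lay above all 6 other arrays for 7 of the 10 genes and 13 of the 19 probe sets, against 15.2% of all genes. The 7 genes were Btg4, Cnot6l, Cnot7, Zar1, Cpeb1 and Dazl, and, by a narrow margin and with its KO oocyte value below the control level, Ybx2. The other members were Zfp36l2, Tob1 and Pabpc1l. Windows of 250 bases upstream of annotated RefSeq transcript starts (GRCm38.p6) were at hand for 8 members, 11 windows in all, and not for Cnot7 and Zfp36l2. Those of Btg4 (chr9:51115751-51116000, plus strand, inside the annotated span of the gene and ahead of 1 of its transcripts) and Dazl (chr17:50293621-50293870, minus strand) are shown because both genes were bright in oocytes and not above the control level in blastocysts. Capitals mark each match to CANNTG, the E-box, which helix-loop-helix factors of germ cells and of many other cells can bind.
Btg4: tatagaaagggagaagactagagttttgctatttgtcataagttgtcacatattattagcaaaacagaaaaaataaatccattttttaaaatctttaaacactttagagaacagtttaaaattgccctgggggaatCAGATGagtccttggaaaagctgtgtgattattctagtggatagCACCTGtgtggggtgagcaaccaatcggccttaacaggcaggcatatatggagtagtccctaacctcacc
Dazl: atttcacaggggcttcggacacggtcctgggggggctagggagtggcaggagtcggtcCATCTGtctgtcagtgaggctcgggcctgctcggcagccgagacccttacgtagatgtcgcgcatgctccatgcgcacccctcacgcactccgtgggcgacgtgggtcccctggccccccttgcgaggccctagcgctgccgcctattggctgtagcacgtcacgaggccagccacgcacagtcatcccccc
CANNTG, whose reverse complement has the same letters, was present in 8 of the 11 windows and in 7 of the 8 genes, and in 66.2% of 32851 windows of the same length over the genome. The homeobox core words TAATTG and TAATTA, searched on both strands, were in none of the 11 windows and in 7.17% and 4.84% of all windows. TATAAA, searched on both strands, was in the Cpeb1 and Tob1 windows and in 12.4% of all windows. These words do not overlap one another in the windows shown.

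**Figure D1:**
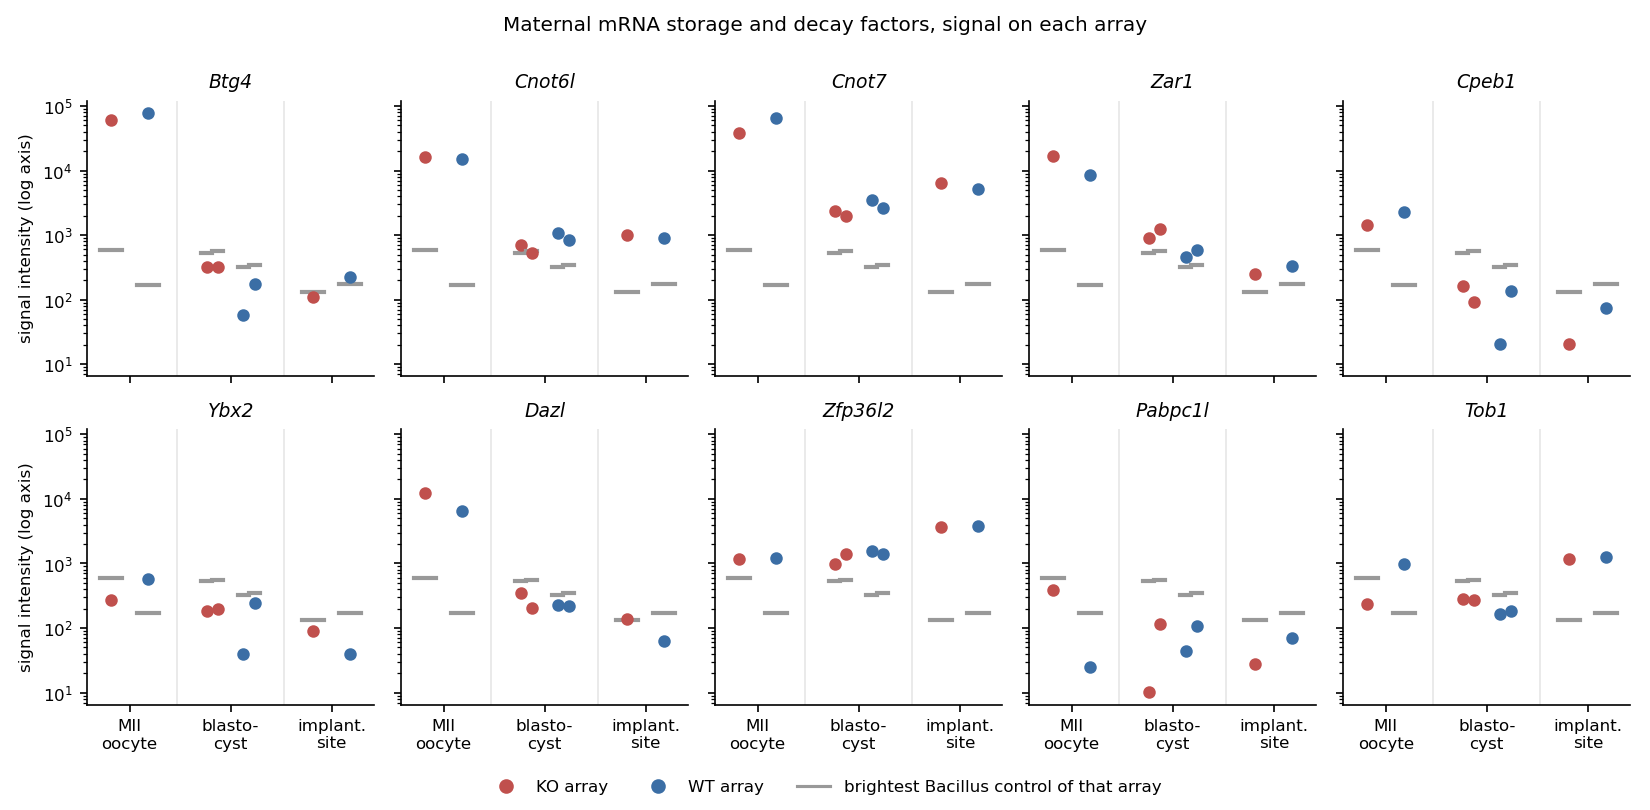
Signal intensity of the representing probe set of each of the 10 genes on each of the 8 arrays (log axis), KO arrays in red left of WT arrays in blue within each stage, with a grey bar at each array's brightest Bacillus control. Btg4, Cnot6l, Cnot7, Zar1, Cpeb1 and Dazl lie far higher in oocytes than later, Zfp36l2 is highest at the implantation site, and Pabpc1l lies under the grey bar on every array.

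Among the decay factors, Btg4 (GRCm38.p6 chr9:51102147-51119924) had the widest range of any member. Its signal was 60246 in KO and 77433 in WT oocytes, 322 and 319.7 in KO and 57.4 and 175 in WT blastocysts, and 111 in KO and 222 in WT implantation sites. The oocyte arrays stood apart from all others, and no blastocyst array rose above its control level. Btg4 was at least 160-fold lower in blastocysts than in oocytes (fitted log2 difference -8.57, SE 0.60, adjusted p = 6.97e-08 by limma over all 34945 probe sets). The difference between implantation site and oocyte was -8.77 on the log2 scale (SE 0.69, adjusted p = 8.62e-07 by limma), with 1 of the 2 implantation arrays above its control level. Implantation site and blastocyst did not differ beyond the spread (log2 difference -0.19, adjusted p = 0.85 by limma).

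Cnot6l (chr5:96070333-96164198), a catalytic subunit of the deadenylase, gave 16203 in KO and 15276 in WT oocytes, 699.8 and 538 in KO and 1082 and 855 in WT blastocysts, and 993 in KO and 915 in WT implantation sites. In blastocysts it fell by 4.36 on the log2 scale against oocytes (SE 0.36, adjusted p = 3e-07 by limma), and was lower at the implantation site as well (-4.05, SE 0.41, adjusted p = 6.4e-06). The level then stayed within the spread between the last 2 stages on this probe set (log2 difference 0.31, SE 0.36, adjusted p = 0.571 by limma). All 4 Cnot6l probe sets fell in blastocysts against oocytes, but they differed from one another at the implantation site. Probe set 1425481_at gave 13807 in KO and 15741 in WT oocytes, 171 to 319.9 on the blastocyst arrays, and 485 in KO and 410.0 in WT implantation sites. Probe set 1434311_at gave 1413 in KO and 1882 in WT oocytes, 45.0 to 286 on the blastocyst arrays, and 1133 in KO and 1146 in WT implantation sites. Thus 1425481_at kept a difference of -5.05 (log2) between implantation site and oocyte (adjusted p = 4.86e-06 by limma), while 1434311_at showed -0.52 there (SE 0.75, adjusted p = 0.673) and was at least 2.67-fold higher at the implantation site than in blastocysts (adjusted p = 0.00216). Probe set 1451723_at lay between them, at least 1.66-fold higher at the implantation site than in blastocysts (adjusted p = 0.0148 by limma) and not separated from oocytes (log2 difference -1.38, adjusted p = 0.0922). The part of the transcript that each probe set reads was not analysed here.

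Cnot7 (chr8:40492538-40515847), the partner deadenylase subunit, gave 38782 in KO and 64875 in WT oocytes, 2369 and 1972 in KO and 3515 and 2677 in WT blastocysts, and 6348 in KO and 5242 in WT implantation sites. It was above the control level on all 8 arrays, and its 3 stages did not overlap. In blastocysts it fell by 4.28 on the log2 scale against oocytes (SE 0.32, adjusted p = 1.32e-07 by limma), and at the implantation site it was lower by -3.12 than in oocytes (SE 0.37, adjusted p = 2.2e-05). It was 1.16 higher (log2) at the implantation site than in blastocysts (SE 0.32, adjusted p = 0.0172 by limma). That last call was lost without KO blastocyst replicate 2 (adjusted p = 0.0604), without the array labelled WT replicate 2 (adjusted p = 0.059), without the KO implantation array (adjusted p = 0.247) and without a variance trend (adjusted p = 0.157), and with the mean of its 3 probe sets (0.50, adjusted p = 0.263), in a range of 0.00755 to 0.263 over 16 alternatives. Probe set 1460665_a_at had the same order (1.21 higher at the implantation site than in blastocysts, adjusted p = 0.0414 by limma). Probe set 1430519_a_at was lower than in oocytes at both later stages and did not separate them (log2 difference -0.87, adjusted p = 0.318).

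**Figure D2:**
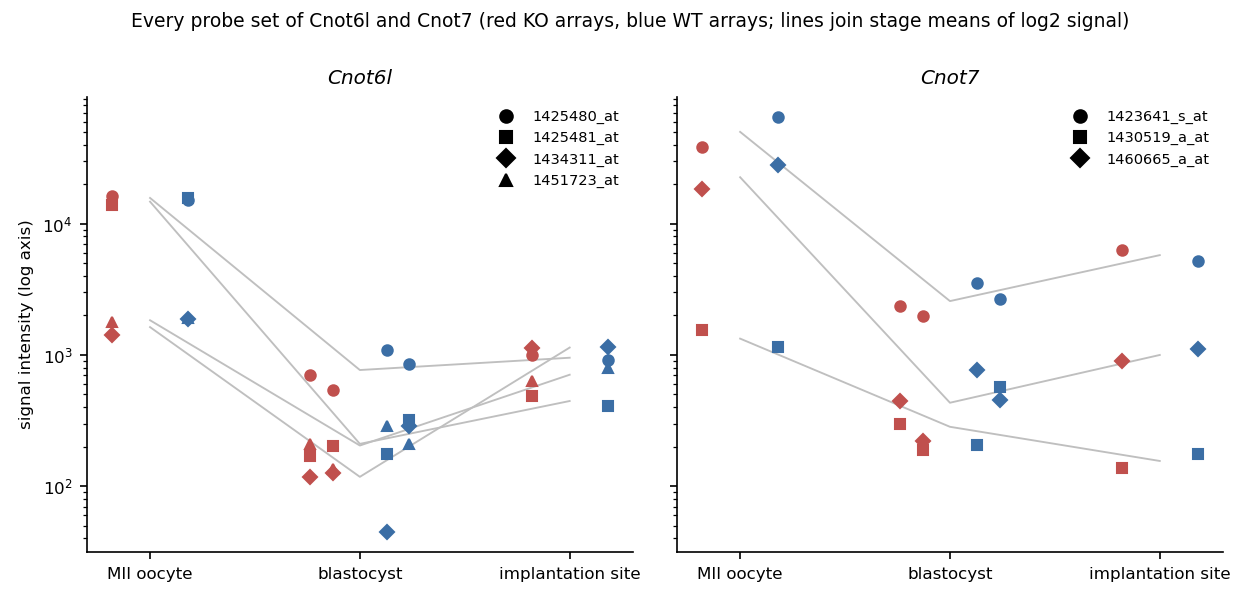
Signal intensity (log axis) of every probe set of Cnot6l and Cnot7 on each array by stage, KO red and WT blue, each symbol 1 probe set, with lines through the stage means of log2 signal. All 7 probe sets are lower in blastocysts than in oocytes, and the Cnot6l probe set 1434311_at is near its oocyte level at the implantation site, at 1133 (KO) and 1146 (WT).

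Tob1 and Zfp36l2, the other decay factors among the members, were highest at the implantation site on their representing probe sets. Tob1 (chr11:94209842-94215495) gave 233 in KO and 975 in WT oocytes, 281 and 270.2 in KO and 163 and 184 in WT blastocysts, and 1172 in KO and 1244 in WT implantation sites. Both implantation arrays were above every other array, and the 2 oocyte arrays lay on either side of the control level. Tob1 was at least 2.83-fold higher at the implantation site than in blastocysts (fitted log2 difference 2.47, SE 0.60, adjusted p = 0.00876 by limma). This call was lost without the KO implantation array (adjusted p = 0.125), without the WT implantation array (adjusted p = 0.0595) and without a variance trend (adjusted p = 0.0566), in a range of 0.00226 to 0.826 over 17 alternatives, and the mean of its 2 probe sets reversed it (-0.27). The blastocyst difference from oocytes was -1.13 (log2, adjusted p = 0.208 by limma). It became -2.37 (adjusted p = 0.0157, range 0.0157 to 0.971 over 17 alternatives) without the KO oocyte array. Without the WT oocyte array it was 0.12, and the implantation site difference from oocytes, 1.34 with all arrays (adjusted p = 0.194), became 2.58 (adjusted p = 0.0338, range 0.0338 to 0.945). The second Tob1 probe set was above its control level on 1 array and was called in no stage comparison.

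Zfp36l2 (chr17:84183924-84187947) gave 1156 in KO and 1232 in WT oocytes, 964 and 1382 in KO and 1565 and 1391 in WT blastocysts, and 3635 in KO and 3826 in WT implantation sites. Oocytes and blastocysts overlapped, and the implantation site lay above both. It rose at the implantation site by 1.52 against blastocysts (log2, SE 0.34, adjusted p = 0.00544 by limma) and by 1.64 against oocytes (SE 0.40, adjusted p = 0.007). Leaving out the KO implantation array ended both calls, with adjusted p of 0.0763 and 0.056, as did a fit without a variance trend, with 0.0776 and 0.0896 (ranges 0.00296 to 0.828 and 0.00379 to 0.607 over 17 alternatives each). The other 2 Zfp36l2 probe sets were above the control level on 3 and 0 of the 8 arrays and were not called in a stage comparison. The mean over the 3 probe sets reversed the sign of both differences, to -0.22 against blastocysts and -0.59 against oocytes.

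Among the storage and translation factors, Zar1 (chr5:72577113-72581361), an oocyte RNA-binding protein needed for the first cleavage, gave 16681 in KO and 8546 in WT oocytes, 889 and 1246 in KO and 463 and 592 in WT blastocysts, and 246 in KO and 334 in WT implantation sites. All 8 values were above the control level, and the 3 stages did not overlap. Against oocytes Zar1 fell by 4.01 in blastocysts (log2, SE 0.41, adjusted p = 2.66e-06 by limma), and its difference at the implantation site was -5.38 (SE 0.48, adjusted p = 2.15e-06). It was lower by a further -1.37 at the implantation site than in blastocysts (SE 0.41, adjusted p = 0.0276 by limma). That step did not hold when arrays were brought to one distribution (-1.14, adjusted p = 0.0683) or to one median (-1.01, adjusted p = 0.129), nor without a variance trend (adjusted p = 0.137). It was also lost without KO blastocyst replicate 2 (adjusted p = 0.0838), the array labelled WT replicate 2 (adjusted p = 0.0569) or the KO implantation array (-0.66, adjusted p = 0.445), in a range of 0.00755 to 0.445 over 17 alternatives.

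Dazl (chr17:50279393-50293620) gave 12480 in KO and 6407 in WT oocytes on its representing probe set, 343 and 203 in KO and 227 and 221 in WT blastocysts, and 139.5 in KO and 63.6 in WT implantation sites. The second probe set gave 9207 in KO and 8648 in WT oocytes, 23.1 to 43.1 on the blastocyst arrays, and 7.55 in KO and 51.4 in WT implantation sites. No blastocyst array reached its control level with either probe set. Dazl was at least 20.9-fold lower in blastocysts than in oocytes by both probe sets (adjusted p = 1.21e-06 and 1.05e-05 by limma). By the implantation site the first of these was lower by -6.57 (log2, SE 0.57, adjusted p = 1.91e-06 by limma) than in oocytes, with 1 of the 2 arrays above its control level, and the second was at least 59.2-fold lower (adjusted p = 3.78e-05). Implantation site and blastocyst were not separated (log2 difference -1.37, SE 0.50, adjusted p = 0.0613 by limma).

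Cpeb1 (chr7:81347026-81458001) was dimmer, with 1450.1 in KO and 2276 in WT oocytes, 160.3 and 90.5 in KO and 20.8 and 137 in WT blastocysts, and 20.6 in KO and 75.6 in WT implantation sites. Only the oocyte arrays were above the control level. Cpeb1 was at least 4.25-fold lower in blastocysts than in oocytes (fitted log2 difference -4.50, SE 0.99, adjusted p = 0.00267 by limma) and at least 12.1-fold lower at the implantation site (-5.52, SE 1.14, adjusted p = 0.00231). Without the WT oocyte array the adjusted p values were 0.099 and 0.0594 (ranges 0.00012 to 0.099 and 0.000181 to 0.0594 over 15 alternatives each).

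Ybx2 (chr11:69935805-69941604) was above the control level on the WT oocyte array alone. It gave 271 in KO and 579.7 in WT oocytes, 186 and 195 in KO and 39.6 and 242 in WT blastocysts, and 89.2 in KO and 39.9 in WT implantation sites. The differences were -1.54 in blastocysts (log2, SE 0.93, adjusted p = 0.272 by limma) and -2.73 at the implantation site (SE 1.08, adjusted p = 0.086) against oocytes, and neither passed the threshold. Leaving out WT blastocyst replicate 1 brought the second to an adjusted p of 0.0447 (range 0.0447 to 0.451 over 14 alternatives). Pabpc1l (chr2:164024770-164050538) was below the control level on all 8 arrays, at 391 in KO and 25.0 in WT oocytes, 10.2 to 117 on the blastocyst arrays, and 27.8 in KO and 70.4 in WT implantation sites. No level can be read from it.

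Taken over the 10 genes, 6 fell and 0 rose in blastocysts against oocytes, where 12.8% of all genes were called lower and 16.8% higher. The median log2 difference of the members was -4.15, against 0.18 over all genes. At the implantation site 6 fell and 1 rose against oocytes (all genes: 11.9% lower, 13.0% higher), with a median of -3.58, against -0.38 over all genes. Between implantation site and blastocyst 1 was lower and 3 were higher (all genes: 14.9% lower, 10.4% higher), with a median of -0.16, against -0.49 over all genes. As the members were chosen with earlier results of these data known, the shares are given as a description. The median over all probe sets depended on the scaling. It was 0.10 in blastocysts against oocytes as deposited and -0.06 with one median on all arrays, and at the implantation site it was -0.42 against blastocysts and -0.38 against oocytes as deposited, and -0.06 and -0.19 with one median.

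**Figure D3:**
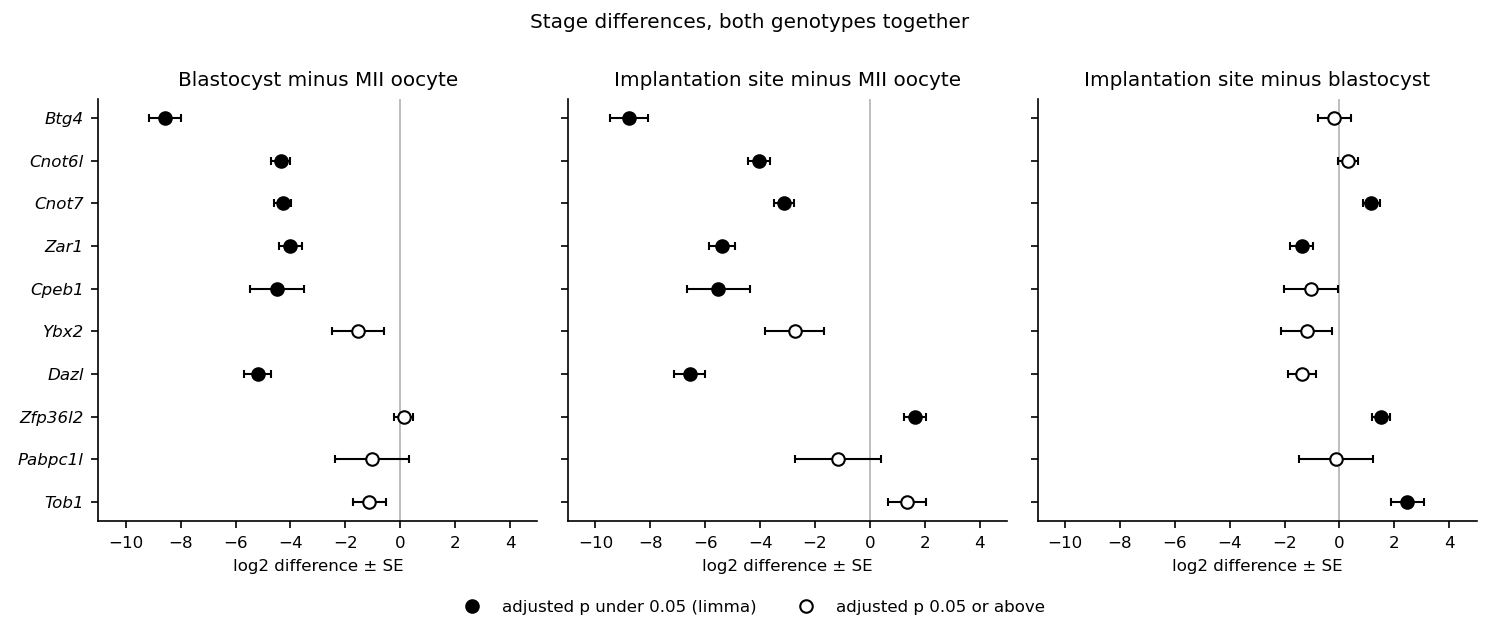
Fitted log2 difference with its SE for the representing probe set of each of the 10 genes in the 3 stage comparisons (limma, 8 arrays), filled where the adjusted p was under 0.05. Btg4 lies at -8.57 and -8.77 in the comparisons with oocytes, and Cnot7, Zfp36l2 and Tob1 are the filled points right of 0 in the last panel.

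The wider pathway did not share one direction. Of 93 related genes in 6 lists, 82 were measured. In blastocysts against oocytes 29 fell and 18 rose, and at the implantation site against oocytes 33 fell and 16 rose. Between implantation site and blastocyst 19 were lower and 16 higher. The shares of all genes given above for each comparison are the background for the counts of the lists, and the genes named from a list are the called ones with the largest fitted difference, which is read as a bound where 1 stage was not above the control level.

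In the list of other CCR4-NOT subunits and deadenylases, not all of them catalytic, 7 of 13 were lower and 1 higher in blastocysts than in oocytes (all genes: 12.8% and 16.8%), with a median log2 difference of -2.07. Among those that fell were Noct (-3.39), a circadian-regulated enzyme of the deadenylase superfamily, Pan3 (-3.23), a subunit of the PAN2-PAN3 deadenylase, Cnot4 (-2.93), a ubiquitin ligase that associates with CCR4-NOT, and Pde12 (at least 2.99-fold), a mitochondrial deadenylase. Noct gave 44021 in KO and 63607 in WT oocytes, 2945 and 3531 in KO and 8828 and 7163 in WT blastocysts, and 829 in KO and 1014 in WT implantation sites. Against oocytes, 7 were lower and 1 higher at the implantation site. Noct (-5.85), Pan2 (-3.26) and Pan3 (-2.86) fell, and Cnot6 (2.73), the paralogue of Cnot6l, rose. Cnot6 gave 486 in KO and 1333 in WT oocytes, 1514 and 1208 in KO and 2484 and 1703 in WT blastocysts, and 6044 in KO and 4722 in WT implantation sites, so its oocyte values lay below those at the implantation site, where Cnot6l on its representing probe set had the opposite order. Between implantation site and blastocyst 3 were lower, Noct (-2.47), Cnot10 (-2.08) and Cnot3 (-2.03), and 3 higher, among them Pde12 (at least 1.62-fold). Of the 2 oocyte arrays, 1 was above its control level for Cnot6.

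The list of other BTG/Tob, TTP and Pumilio family genes also held Nanos1 and Caprin2, which are outside these families. Of its 8 genes 2 were lower and 0 higher in blastocysts than in oocytes. The 2 were Pum2 (-2.91), which represses messages with a Pumilio element, and Caprin2 (at least 1.32-fold). Against oocytes, 3 rose and 1 fell at the implantation site: Zfp36l1 (4.04), Btg2 (2.71) and Btg1 (1.44) were higher and Tob2 (-2.73) was lower. Against blastocysts 5 were higher and 1 lower (all genes: 10.4% and 14.9%), with Zfp36l1 (3.38), Btg2 (2.94), Btg1 (2.19) and Zfp36 (at least 1.22-fold) among the higher. Btg2 was above the control level on 1 of the 4 blastocyst and 1 of the 2 oocyte arrays. Zfp36l1, an AU-rich element binder like Zfp36l2, gave 685 in KO and 1295 in WT oocytes, 762 and 1103 in KO and 2208 and 2619 in WT blastocysts, and 17017 in KO and 14081 in WT implantation sites. The implantation site arrays also carried the sum of 10 stromal and decidual markers given above, and a leukocyte marker sum of 46022 (KO) and 35176 (WT), against 3873 to 16315 in blastocysts. All 6 leukocyte markers in KO and 5 in WT were above the control level there, as were 4 in WT and 1 in KO oocytes. Csf1r (19673 in KO, 18588 in WT) and Laptm5 (21153 in KO, 12741 in WT) made up most of the implantation site sums. Tyrobp was lower there (704 in KO, 666 in WT) than in KO blastocysts (1178 and 1842). Cd68 (158 in KO, 139 in WT) was lower there than in WT oocytes (223). The part of stromal, decidual and leukocyte cells in the implantation site values of Zfp36l2, Tob1 and the lists was not tested.

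Of 11 maternal messages known for translational control, 6 were lower and 1 higher in blastocysts than in oocytes, and 10 were lower at the implantation site. Wee2, an oocyte kinase that holds meiosis in check, gave 58941 in KO and 121103 in WT oocytes and 153 to 295 on the blastocyst arrays, below the control level on all 4. It was at least 198-fold lower in blastocysts and at least 560.1-fold lower at the implantation site than in oocytes (adjusted p = 5e-09 and 3.96e-08 by limma). H1f8, the oocyte linker histone, was at least 4.83-fold lower in blastocysts, Mos, the kinase of metaphase arrest, at least 1.84-fold, and Bub1b, a spindle checkpoint kinase, fell by 3.82 on the log2 scale. Bub1b was lower by -4.33 at the implantation site than in oocytes. Tex19.1 and H1f8 were called lower there too, with 139 and 7.54 in KO and 56.8 and 202 in WT, of which 1 array each was above its control level, against 1955 and 1554 in KO and 2312 and 2736 in WT oocytes. Against blastocysts 4 were lower and 0 higher, among them Tex19.1 (5299 to 6620 on the blastocyst arrays), Sycp3 (-3.22), a synaptonemal complex protein, and Tpx2 (-2.07), a spindle assembly factor.

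Storage and repression factors outside the member list went both ways, with 8 of 21 lower and 6 higher in blastocysts than in oocytes. Lsm14b (-5.05) and Lsm14a (-4.30), RNP granule proteins, fell. Eif4ebp1 (4.57), a translational repressor, and Igf2bp1 (3.77), a message-binding protein, rose, each with 1 of the 2 oocyte arrays above its control level. Lsm14b gave 31530 in KO and 53899 in WT oocytes, 1302 and 1351 in KO and 1134 and 1209 in WT blastocysts, and 3168 in KO and 2626 in WT implantation sites. Of the same 21 genes 7 were lower and 4 higher at the implantation site than in oocytes, with Lsm14b (-3.84), Cpeb3 (-3.75), Igf2bp3 (-3.32) and Fxr1 (-2.90) among the lower, and 5 were lower and 6 higher than in blastocysts. Igf2bp1 was at least 26.4-fold lower than in blastocysts, Igf2bp3 was lower by -4.27, Eif4ebp1 by -2.80, and Cpeb4, a paralogue of Cpeb1, was higher by 2.41.

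Genes of poly(A) binding and tail addition had 4 lower and 7 higher of 16 in blastocysts than in oocytes. Pabpc1, the somatic poly(A)-binding protein, gave 1824 in KO and 2127 in WT oocytes, 24860 and 27140 in KO and 40448 and 29187 in WT blastocysts, and 21044 in KO and 19331 in WT implantation sites. It rose by 3.92 in blastocysts and 3.36 at the implantation site against oocytes (log2, SE 0.30 and 0.35, adjusted p = 1.74e-07 and 7.7e-06 by limma), while its oocyte relative Pabpc1l could not be read. Cpsf1, of the cleavage and polyadenylation complex, was at least 5.80-fold higher in blastocysts and at least 3.64-fold higher at the implantation site than in oocytes. Pabpn1l, the oocyte form of the nuclear poly(A)-binding protein, was at least 4.50-fold lower in blastocysts and at least 12.7-fold lower at the implantation site, and Tent4a, a poly(A) polymerase, was lower by -4.51 and -4.26 on the log2 scale. In all, 5 were lower and 5 higher at the implantation site than in oocytes, and 4 were lower (Pabpc4 -2.21, Cpsf2 -1.46, Cpsf4 -1.39 among them) and 1 higher (Tut7, 1.17) than in blastocysts. Decapping genes had 2 lower and 3 higher of 13 in blastocysts than in oocytes, near the shares over all genes (12.8% and 16.8%): Dcp1a, the activator of the decapping enzyme, fell by 5.37, Edc4 by 2.00, Edc3 rose by 2.17 and Nudt16 was at least 1.66-fold higher. By the implantation site 3 were lower (Dcp1a -5.83, Edc4 -2.80, Patl2 -2.24) and 3 higher, among them Dcp2 (2.05), than in oocytes, and 2 were lower (Dcp1b, at least 1.81-fold, and Patl2, -1.98) and 1 higher (Ddx6, 1.50) than in blastocysts. Of the arrays behind these values, 2 of 4 blastocyst arrays for Dcp1a, 1 of 2 oocyte arrays for Edc3 and Dcp2 and 1 of 2 implantation arrays for Patl2 were above their control levels.

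**Figure D4:**
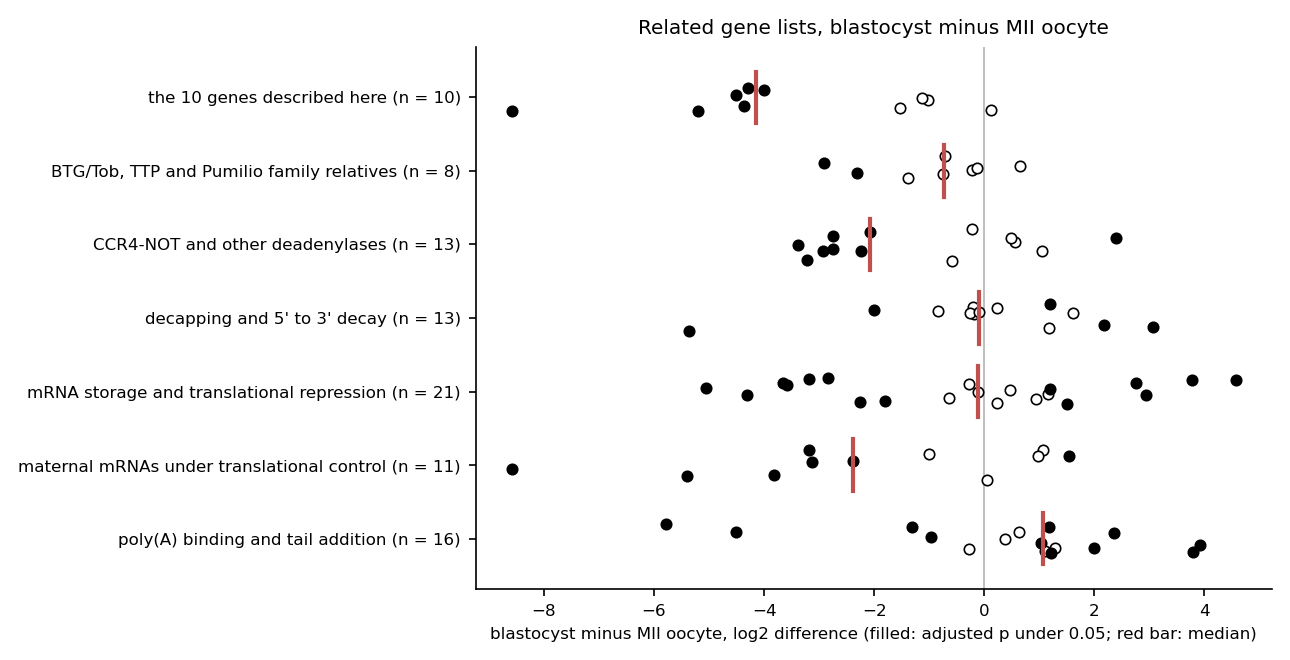
Log2 difference of blastocysts minus oocytes for the 10 genes described here and for the 82 measured genes of 6 related lists, 1 point a gene, filled where the adjusted p was under 0.05 (limma), with the median of each list as a red bar. The members' median lies at -4.15, deadenylases at -2.07 and poly(A) binding and tail addition at 1.06.

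The genes whose pattern over the 8 arrays was most like that of Btg4, among 11744 candidates brighter than the median, were Senp6 (Pearson r = 0.9944), a SUMO protease, Cenpj (0.9893), a centriole protein, Gm7056 (0.9891), Unc50 (0.9882) and Oas1e (0.988). The arrays fall into 3 stages, so r mostly reads the oocyte arrays against the rest and is given as a description. Among members, Zar1 (0.954), Cpeb1 (0.953), Cnot6l (0.941), Dazl (0.941) and Cnot7 (0.903) were close to Btg4, Ybx2 was at 0.734, and Pabpc1l (0.285), Tob1 (0.14) and Zfp36l2 (-0.433) were not.

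Whether loss of connexin 43 changed these messages was tested in blastocysts, where each genotype had 2 arrays. No member was called: 0 of 10 were lower and 0 higher, where 0.0% of all genes were called lower and 0.0495% higher (limma), and 1 member had an unadjusted p under 0.05, as had 1519 genes higher and 942 lower in KO. Zar1 was that member. Its 2 KO values of 889 and 1246 lay above its 2 WT values of 463 and 592 (log2 difference 1.01, SE 0.41, unadjusted p = 0.0339, adjusted p = 0.378 by limma, range 0.225 to 0.868 over 13 alternatives). Cnot6l and Cnot7 lay lower in KO than in WT on all arrays of their representing probe sets, by -0.65 (SE 0.40, adjusted p = 0.54) and -0.51 (SE 0.31, adjusted p = 0.541 by limma). KO and WT arrays did not overlap for 6 of the 10 members, 3 lower (Cnot6l, Cnot7, Zfp36l2) and 3 higher (Zar1, Btg4, Tob1), where 20.5% of all genes did not overlap with KO lower and 24.9% with KO higher. Btg4 (1.68, SE 0.83, adjusted p = 0.452 by limma) and Tob1 (0.67, adjusted p = 0.72) were below the control level on all 4 arrays. Without the array labelled WT replicate 2, 0 members were called, and the differences were 2.48 for Btg4 (adjusted p = 0.189), 1.19 for Zar1 (adjusted p = 0.225), -0.82 for Cnot6l (adjusted p = 0.372) and -0.70 for Cnot7 (adjusted p = 0.284). The 6 leukocyte markers summed to 10102 and 16315 in KO and 3873 and 6898 in WT blastocysts, with 2 or 3 of them above the control level on each array. Csf1r, a macrophage receptor, made up most of the gap (6134 and 11937 in KO, 593 and 3881 in WT). Tyrobp was higher in KO too (1178 and 1842 in KO, 287 and 580 in WT). Laptm5 was alike (2288 and 2219 in KO, 2490 and 2311 in WT), and Ptprc was below the control level on all 4. The inner cell mass markers summed to 6870 and 7439 in KO and 14272 and 9544 in WT. The control levels were 535 and 559.7 in KO and 322 and 345 in WT, and the ratios of 3' to 5' Actb signal 25.7 and 39.0 in KO and 69.3 and 69.1 in WT. The same ratio for Gapdh had the opposite order, at 11.2 and 11.8 in KO and 7.27 and 7.71 in WT. The part of these markers, control levels and ratios in the member differences was not tested.

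With genotype taken over the 3 stages together, again 0 of 10 members were lower or higher, with adjusted p of 0.8 to 0.997 by limma. Over all genes 0.0% were called lower and 0.0% higher, and 0 members had an unadjusted p under 0.05, as had 791 genes higher and 444 lower in KO.

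In oocytes and at the implantation site 1 KO array stood against 1 WT array, so the differences have no replicate check. For scale, replicate blastocyst arrays differed at least 2-fold in 26.9% of all genes within KO and in 36.7% within WT. In oocytes the 6 members brightest there lay less than 2-fold apart as deposited: Btg4 at -0.36, Cnot6l at 0.09, Cnot7 at -0.74, Zar1 at 0.97, Cpeb1 at -0.65 and Dazl at 0.96 (log2, KO minus WT), and the second Dazl probe set gave 9207 in KO and 8648 in WT. With one median on both arrays Cnot7 (-1.29) and Cpeb1 (-1.20) passed 2-fold, with one distribution Zar1 (1.47) and Dazl (1.33) did, and Btg4 lay at -0.91 and 0.37 and Cnot6l at -0.46 and 0.69 under these 2 scalings. At least 2-fold lower in KO were 2 members, Ybx2, with 271 in KO and 579.7 in WT, and Tob1, with 233 in KO and 975 in WT, where 12.3% of all genes were as much lower. Ybx2 and Tob1 were under the control level of the KO array, which leaves Tob1 at least 1.66-fold lower and no fold for Ybx2. Pabpc1l, 391 in KO and 25.0 in WT and below the control level on both, was the 1 member counted as higher, where 33.8% of all genes were. The 2 oocyte arrays themselves differed: the control level was 588 in KO and 170.7 in WT, the ratio of 3' to 5' Actb signal 6.68 in KO and 33.4 in WT, and the median difference over all probe sets 0.45, which became -0.10 with one median on both arrays. The part of these in the oocyte differences was not tested. In the related lists 14 genes were at least 2-fold lower and 4 higher in KO oocytes. Cnot8, a paralogue of Cnot7, gave 2245 in KO and 5522 in WT oocytes, and Wee2 gave 58941 in KO and 121103 in WT. Cnot3, a CCR4-NOT subunit, went the other way, with 3391 in KO and 987 in WT.

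At the implantation site the bright members Cnot6l (0.12), Cnot7 (0.28), Zfp36l2 (-0.07) and Tob1 (-0.09) differed by at most 1.21-fold between KO and WT, and Zar1 by -0.44 (log2, KO minus WT). At least 2-fold lower were 2 members, Cpeb1 and Pabpc1l, where 24.0% of all genes were as much lower, and 2 higher, Ybx2 and Dazl, where 10.3% were. Cpeb1, Pabpc1l and Ybx2 were below the control level on both arrays, and Dazl, with 139.5 in KO and 63.6 in WT, was above it in KO only. Btg4 was at least 1.70-fold lower, with 111 in KO and 222 in WT. In the related lists 12 genes were at least 2-fold lower and 5 higher in KO. Btg2 gave 1769 in KO and 4382 in WT, and Eif4ebp1 gave 2250.3 in KO and 856 in WT. The median over all probe sets was -0.22 as deposited and 0.19 with one median on both arrays.

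**Figure D5:**
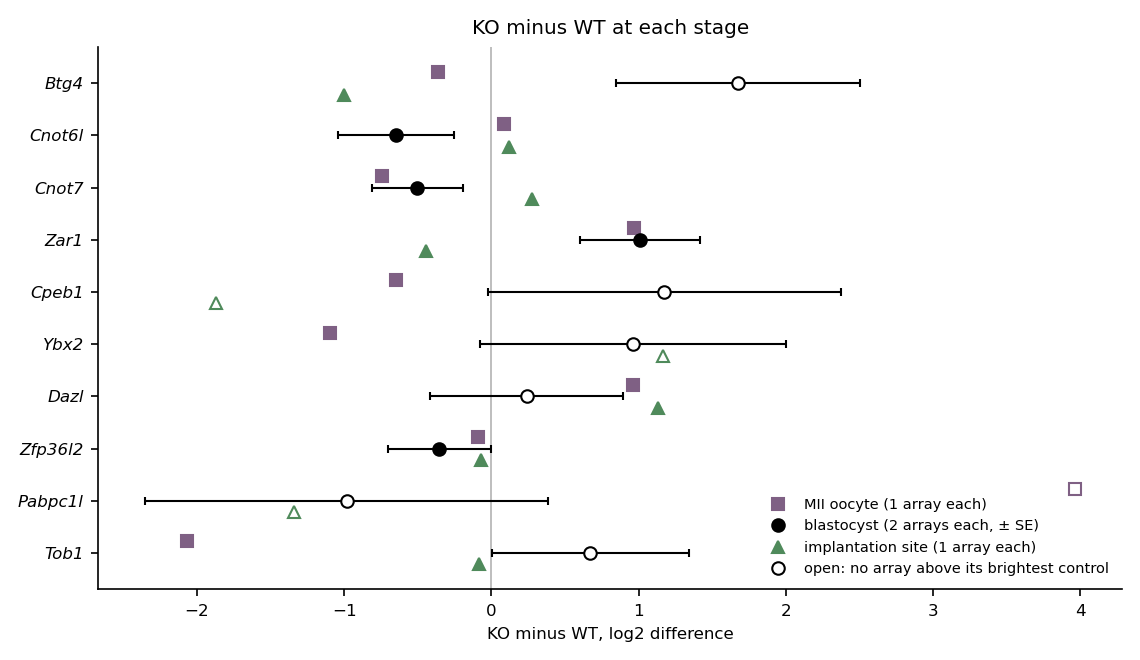
KO minus WT log2 difference of the representing probe set of each of the 10 genes in oocytes (squares, 1 array each), blastocysts (circles with SE, 2 arrays each) and implantation sites (triangles, 1 array each), open where no array was above its control level. Zar1 lies at 1.01 in blastocysts and 0.97 in oocytes, and the point farthest from 0, Pabpc1l in oocytes at 3.97, is open.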

How the data were processed

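Per the submitters' processing notes, the authors deposited MAS5 values. Version and filters: not given in the sources used here. Deposited values were signal intensity on a linear scale, which tests of the columns put at a trimmed mean of 500.0 on all 8 arrays. RNA was polyadenylated per the labels, so a message with a short tail may be under-read; this was not tested. The number of arrays limits the precision.

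Log2 intensity was tested with limma 3.58.1 (R 4.3.3; lmFit, eBayes with trend, two-sided, Benjamini-Hochberg over 34945 probe sets annotated to 1 gene; called at an adjusted p under 0.05) without an intensity filter, since a filter would remove Cpeb1, Ybx2 and Pabpc1l. Stage contrasts used all 8 arrays with stage and genotype terms, and blastocyst KO against WT used 4. With 1 array per genotype, 2-fold was counted. A bound ("at least") sets the dim group at the higher of its own signal and its control level. Counts use 1 probe set for each of 18193 genes. Tables were made with pandas 2.3.3. The script was tested on simulated data.

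Named were all members, up to 4 called genes per list and stage comparison with the largest difference, 5 genes most like Btg4, and Gja1. Genes of the lists given for single KO comparisons (Cnot8, Cnot3, Wee2, Btg2, Eif4ebp1) were picked with values known. So were Cnot6, Lsm14b, Noct and the markers shown by array. Members and lists were chosen with earlier results of these data known. The replicate numbers of KO and WT blastocysts are not said to pair them, so the main fit had no block. The replicate differences of KO and WT had r = 0.005186, which rests on 1 difference per genotype and cannot show whether they pair. Alternatives were quantile and common-median scaling, a pseudocount of 50, dim-probe filters, probe set rules, no variance trend, no genotype term, a replicate block and leaving out arrays or stages. Probe sets of several genes (932) or none (9160) were left out.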

Additional observations from a re-analysis of the deposited data

Results flagged for a closer look

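For 5 members the KO and WT blastocyst arrays did not overlap while the single KO and WT arrays of another stage lay the other way round. That is 5 of the 6 members with no overlap, and 78.9% of the 8261 such genes in all, so the members' share is near that of all genes. The difference between the stages was not tested, and no member was called in blastocysts. The log2 difference of Btg4 was 1.68 in KO blastocysts (adjusted p = 0.452 by limma) and lay at -0.362 in oocytes and -0.999 at the implantation site, with every blastocyst value below the control level. For Cnot6l it was -0.65 (adjusted p = 0.54 by limma) and lay at 0.085 in oocytes and 0.118 at the implantation site. For Cnot7 it was -0.51 (adjusted p = 0.541 by limma) and lay at 0.276 at the implantation site. For Zar1 it was 1.01 (adjusted p = 0.378 by limma) and lay at -0.441 at the implantation site. For Tob1 it was 0.67 (adjusted p = 0.72 by limma) and lay at -2.065 in oocytes and -0.087 at the implantation site, with all 4 blastocyst values and the KO oocyte value below the control level.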

How the results depend on the processing

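The falls of Btg4, Cnot6l, Cnot7, Zar1 and Dazl against oocytes kept sign and call under each of the 16 or 17 alternatives run, with adjusted p of at most 0.00522 in blastocysts and 0.019 at the implantation site. The choice of setting moved the counts of called members. Taking the mean of probe sets per gene left 0 higher at the implantation site against oocytes (8.81% of all features) and 1 against blastocysts (6.53%). It reversed Zfp36l2 (-0.368 in blastocysts and -0.590 at the implantation site against oocytes, -0.223 between implantation site and blastocyst, 0.431 in KO blastocysts), Tob1 (0.058, -0.211 and -0.269 in the same stage order) and Dazl at the KO implantation site (-0.817). Without a variance trend 0 members were higher at the implantation site against oocytes (6.64% of all features). Against blastocysts 0 were lower and 0 higher (6.74% and 5.36% of all features). Between implantation site and blastocyst, quantile and common-median scaling left 0 lower, and the 2 filters on dim probe sets (brightest per gene, all probe sets) 2 lower each, with Dazl added. These scalings also reversed Zfp36l2 in blastocysts against oocytes (-0.024 and -0.040), Btg4 (0.146 and 0.168) and Pabpc1l (0.384 and 0.227) between implantation site and blastocyst, and Dazl in KO blastocysts (-0.003 and -0.014).

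In KO oocytes the count lower was 1 with the brightest probe set per gene, the mean of probe sets, probe sets without a suffix, the pseudocount and the filter, where 7.94% to 13.2% of all features were, and 4 with a common median, where 25.2% were. The count higher was 0 with the brightest probe set and the filter (23.9% and 24.4% of all features), 2 with the mean (37.6%) and 3 with quantile scaling (23.3%). The brightest probe set and the filter keep 7 of the 10 members and drop Cpeb1, Ybx2 and Pabpc1l. Pabpc1l, the 1 member counted as higher, could therefore not be counted there. At the KO implantation site the count lower was 0 with the brightest probe set, the pseudocount and the filter (14.3% to 16.3% of all features) and 1 with both scalings (16.5% and 18.0%), and the count higher was 1 with the brightest probe set, the mean, no suffix and the filter (6.12% to 12.7%) and 0 with the pseudocount (6.13%). Cpeb1 and Pabpc1l, the 2 members counted as lower at that site, were dropped by the brightest probe set and the filter.

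Leaving out arrays moved the counts of called members at the implantation site against oocytes and against blastocysts. The shares called over all features moved with the array left out as well. Some of these fits had 1 array left at a stage, so the counts are not given. Without the KO oocyte array Pabpc1l reversed against oocytes (1.506 in blastocysts, 1.374 at the implantation site), and without the WT oocyte array Tob1 in blastocysts (0.117); over all arrays left out, Pabpc1l ran from -3.562 to 1.506 and from -3.694 to 1.374, and Tob1 from -2.366 to 0.117. Between implantation site and blastocyst Btg4 was 0.045 and 0.042 without either KO blastocyst, Pabpc1l was 0.341 without KO replicate 2 and 0.353 with the array labelled WT replicate 2 left out, and, with the KO implantation array left out, Btg4 was 0.806, Cpeb1 0.198 and Pabpc1l 0.869. Their lowest values were -1.19, -2.24 and -1.134, without the WT implantation array. In KO against WT blastocysts, Dazl (-0.138) and Pabpc1l (0.774) reversed without KO replicate 1, and Cpeb1 (-0.187) and Ybx2 (-0.344) without WT replicate 1. Their leave-out ranges were -0.138 to 0.619, -2.742 to 0.774, -0.187 to 2.537 and -0.344 to 2.267. The cause of these changes was not tested. A replicate block called 0 members, and moved the calls over all probe sets to 94 lower and 493 higher, against 0 and 10 without it. Leaving out the array labelled WT replicate 2 gave 12 lower and 295 higher.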
